A study of Mus musculus with 18 samples.

Results

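Mast1 is a cluster of mast cells in the bone marrow of mouse fetuses at embryonic day 16.5 (E16.5). Its members were taken from the annotation that the authors deposited for each cell, as the hematopoietic cells of the E16.5 libraries that carry exactly this cluster name. It held 975 of the 5312 E16.5 hematopoietic cells, of 20982 hematopoietic cells of all stages and 56201 cells in the whole series. Its nearest neighbours are Mast2i and Mast2ii, the other mast cell clusters of the stage, with 584 and 504 cells.

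The study profiled adult bone marrow and that of E16.5, E18.5 and newborn (P0) mice by single-cell RNA sequencing with oligonucleotide-tagged antibodies (CITE-seq), in C57B6/J mice with no other treatment or allele named. Hematopoietic progenitors (HPs) were sorted as CD45+ Lineage- c-Kit+ cells, so every cell described here passed a gate for Kit, the receptor for stem cell factor. E16.5 HPs were run in 2 libraries, called library 1 and library 2 below, and each of the other stages in 1. Marrow of several mice was pooled and the experiment was not repeated, so the 2 libraries need not be separate pools of fetuses.

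Mast cells are tissue-resident immune cells that develop under Kit signalling and store proteases, histamine and serotonin in granules packed on a serglycin and heparin matrix. Cross-linking of IgE bound to the receptor FcεRI, or ligand binding to the receptor Mrgprb2, releases the granules. Connective tissue mast cells of the mouse are known for the chymase Mcpt4, the protease Cma1, the tryptase Tpsb2 and carboxypeptidase A3 (Cpa3), whereas mucosal mast cells are known for Mcpt1 and Mcpt2.

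Library 1 gave 106 Mast1 cells, or 18.9% (exact Clopper-Pearson 95% interval 15.8 to 22.4%) of its 560 HPs, and library 2 gave 869, or 18.3% (17.2 to 19.4%) of 4752. Mast1 thus took a similar share of both, although the rest of the libraries differed: T cell clusters held 18 cells of library 1 and 2141 of library 2. Among the cells of the 3 mast cell clusters alone, 40.9% and 48.2% were Mast1. A median Mast1 cell held 22232.5 UMIs (unique molecular identifiers, each counting 1 captured transcript) in library 1 and 13591 in library 2, which was 0.674 and 0.622 times the median of Mast2i cells and 0.806 and 0.755 times that of Mast2ii cells. Levels below are therefore CPM, the UMIs of a gene summed over the cells of a cluster in 1 library, per 1000000 UMIs of those cells. Pairs of values are library 1 and library 2, in that order. Intervals are 95% and, like all intervals given here, cover counting error only. The libraries held 13974733 and 95833532 UMIs over all their HPs, and 1 cell barcode occurs in both. Mitochondrial transcripts made up a median of 4.32% and 3.51% of a Mast1 cell. The deposited hscScore, a similarity score to stem cells, had medians of 0.0813 and 0.102 in Mast1. Its medians were 0.00165 and 0.00186 in Mast2i and 0.0163 and 0.0238 in Mast2ii. In the stem and progenitor cluster HSPC1 they were 0.0423 and 0.0325, below Mast1, so the score is not read here as likeness to stem cells.

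A gene was called higher or lower in Mast1 where its CPM differed by more than 2-fold in the same direction in both libraries, among genes with at least 20 CPM and 10 UMIs in the higher cluster of each library. No p-value goes with these calls, because the clusters were made from the same genes and 2 libraries allow no exact test to reach 0.05. Against Mast2i, 22 of 5011 genes were higher (0.439%) and 238 lower (4.75%). Against Mast2ii, 48 of 5012 were higher (0.958%) and 90 lower (1.8%). The median gene lay close to even with Mast2i, at a log2 ratio of -0.07 in library 1 and -0.09 in library 2. It lay below Mast2ii, at -0.21 and -0.17, and when ratios were divided by that median, 90 genes were higher than in Mast2ii and 62 lower, in place of 48 and 90.

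Cells with transcripts of a second cell type were unevenly spread. After each cell was thinned to 2000 UMIs, 0 of 106 Mast1 cells in library 1 (which allows a share of up to 3.42% by the exact interval) and 65 of 869 in library 2 (7.48%) held at least 2 UMIs of 8 T cell genes. In library 2 the share was 4.01% of Mast2i and 3.21% of Mast2ii cells. These 65 Mast1 cells had a median of 82 counts of the antibody to CD90.2, a T cell surface protein, against 1 in the other 804 Mast1 cells of the library and 77 in its T cell clusters. They also had a median of 28399 UMIs against 13283.5. The summed T cell genes stood at 1.62 and 3.49 times their Mast2i level, with the highest, Cd3g, at 14.7 and 206 CPM in Mast1 and 386 and 2381 in T cell clusters, and Cd3e, Ptcra, Lck, Trbc1 and Trbc2 at 0 in Mast1 of library 1. Summed over the 8 genes, the T cell list held 16.0 and 616 CPM in Mast1, 9.87 and 177 in Mast2i and 12.6 and 164 in Mast2ii. A macrophage list of 8 genes showed the opposite imbalance, with 248 and 174 CPM in Mast1, 739 and 219 in Mast2i and 266 and 207 in Mast2ii. Its complement gene C1qa stood at 2.46 and 2.01 CPM in Mast1, 58.9 and 6.97 in Mast2i and 1.51 and 2.19 in Mast2ii, and 27.1% of Mast2i cells in library 1 held at least 2 UMIs of the list against 8.49% of Mast1 cells. No doublet caller was run. Values without such cells in any of the 3 mast cell clusters are given below for the results that these cells move most, above all cell cycle genes. Besides the 65 Mast1 cells, this leaves out 20 Mast2i and 14 Mast2ii cells of library 2 and 1 Mast2ii cell of library 1, all with at least 2 T cell UMIs.

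The name of the cluster was checked against its 3 markers. Cpa3 was found in nearly every cell: after thinning to 2000 UMIs, 100% and 99.7% of Mast1 cells held a Cpa3 UMI. At 5000 UMIs per cell the shares were 100% and 99.8% in Mast1, 100% and 99.8% in Mast2i and 100% and 99.5% in Mast2ii. The presence of Cpa3 thus did not tell Mast1 from the other mast cell clusters. T cell clusters, which should lack Cpa3, held a UMI of it in 33.3% and 27.7% of cells at 2000 UMIs, with 855 and 533 CPM. Their median depth was 22175 and 21983 UMIs. Of the 18 such cells in library 1, 7 held fewer than 2 T cell UMIs, and these 7 had a median of 23 Cpa3 UMIs without thinning. Mrgprb2, the receptor for cationic peptides and secretagogues, stood at 42.6 and 27.6 CPM in Mast1, 11.9 and 6.79 in Mast2i and 5.54 and 3.52 in Mast2ii. A UMI of Mrgprb2 was present in 9.43% (4.62 to 16.7%) and 5.18% (3.81 to 6.88%) of Mast1 cells at 2000 UMIs, and in 30.2% and 17.3% without thinning, against 0 of 18 and 1.07% of the cells of T cell clusters. At 5000 UMIs Mrgprb2 was present in 17.1% and 10.6% of Mast1, 3.57% and 2.62% of Mast2i and 4.41% and 2.78% of Mast2ii cells. Mcpt1 marked few cells. It stood at 7.37 and 30.4 CPM in Mast1, 5.11 and 15.9 in Mast2i and 6.04 and 8.13 in Mast2ii. At 2000 UMIs, 0.943% and 1.96% of Mast1 cells held a UMI of it. At 5000 UMIs the shares were 2.86% and 1.97% in Mast1, 3.57% and 2.82% in Mast2i and 2.94% and 2.08% in Mast2ii. Mast1 was thus the lowest of the 3 clusters by share of cells, whereas by CPM it was the highest. These shares rest on few cells, and their order was not tested. Of 12 mast cell markers, 11 passed the filter on level, and their summed ratio was 1.5 and 1.41 to Mast2i and 1.66 and 1.69 to Mast2ii. Basophil genes were mixed. Mcpt8, a protease that defines basophils, stood at 31.1 and 32.7 CPM in Mast1, 74.2 and 43.6 in Mast2i and 152 and 60.7 in Mast2ii. Prss34, another basophil serine protease, stood at 1052 and 1257 CPM in Mast1, 680.0 and 1101 in Mast2i and 906 and 922 in Mast2ii, so 1 of the 2 basophil-defining genes was well above the floor in all 3 clusters. The eosinophil granule genes Epx, Ear1 and Ear2 had no UMI in Mast1, which allows up to 1.51 CPM in library 1 and 0.285 in library 2 by the exact Poisson interval. Of the 7 listed eosinophil markers only Il5ra passed the filter. The summed list was 1.34 and 1.28 times its Mast2i level and 0.967 and 1.12 times its Mast2ii level.

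The DNA just upstream of these 3 markers is shown because the name of the cluster was checked against them. GATA factors, among them Gata2 described below, are known regulators of mast cell genes. Each line gives the 250 bases before the gene start set by a promoter table from RefSeq on build GRCm38.p6, read 5′ to 3′ on the strand of the gene, with matches to AGATAA or TGATAA on either strand in capitals.
Mrgprb2 promoter, chr7:48558087-48558336, minus strand: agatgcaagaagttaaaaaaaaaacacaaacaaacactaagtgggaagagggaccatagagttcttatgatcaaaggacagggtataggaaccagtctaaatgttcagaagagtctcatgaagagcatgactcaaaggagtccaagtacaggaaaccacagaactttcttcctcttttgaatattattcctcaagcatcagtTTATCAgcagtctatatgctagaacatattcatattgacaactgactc
Cpa3 promoter, chr3:20242182-20242431, minus strand: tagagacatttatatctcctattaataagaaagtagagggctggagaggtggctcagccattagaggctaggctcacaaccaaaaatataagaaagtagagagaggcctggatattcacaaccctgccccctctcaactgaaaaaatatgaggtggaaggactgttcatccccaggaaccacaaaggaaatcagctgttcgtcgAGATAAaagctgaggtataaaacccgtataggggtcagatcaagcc
Mcpt1 promoter, chr14:56017714-56017963, plus strand: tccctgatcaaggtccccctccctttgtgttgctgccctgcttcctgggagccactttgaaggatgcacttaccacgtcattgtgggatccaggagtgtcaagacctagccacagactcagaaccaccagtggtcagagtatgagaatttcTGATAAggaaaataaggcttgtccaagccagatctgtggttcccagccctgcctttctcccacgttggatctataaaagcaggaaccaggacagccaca
Each window held 1 match, which starts 48 bases before the start of Mrgprb2, 46 before Cpa3 and 99 before Mcpt1. Of all 32851 windows of the same length, 16.6% held one. Among the granule proteases listed below, 4 of 11 windows held one, and the Cma1 window had none. Among the 12 mast cell markers, which include the 3 shown, 8 of 12 windows (66.7%) from 10 genes held one. Distances are counted from the start in that table. For Cpa3 this start lies 28 bases inside the gene span given below, so its window takes in the first 28 bases of that span. A window tells nothing of other start sites, and a match describes letters and not a bound site.

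Granule proteases were the most abundant transcripts of Mast1. Cma1 (chr14:55941451-55944675, GRCm38.p6), a chymase-family elastase, stood at 35583 and 44835 CPM in Mast1, 23751 and 32213 in Mast2i and 21744 and 27083 in Mast2ii, and was the gene with the highest level in Mast1 of both libraries. Cpa3 (chr3:20215616-20242209), which trims peptides from their carboxyl ends, stood at 17758 and 21601 CPM in Mast1, 12692 and 16766 in Mast2i and 12236 and 14730.2 in Mast2ii. The tryptase Tpsb2 (chr17:25366308-25368096) stood at 13549 and 15208 CPM in Mast1, 7704 and 9393 in Mast2i and 6343 and 7035 in Mast2ii. For all 3 genes Mast1 was the highest of the 3 clusters in both libraries, although library 2 was above library 1 in every cluster. The ratios to Mast2i were 1.5 and 1.39 for Cma1, 1.4 and 1.29 for Cpa3 and 1.76 and 1.62 for Tpsb2. Against Mast2ii they were 1.64 and 1.66 for Cma1, 1.45 and 1.47 for Cpa3 and 2.14 and 2.16 for Tpsb2. By level in both libraries, the 15 highest genes of Mast1 were these 3 with Srgn, the nuclear RNA Malat1, and genes of translation and mitochondria, namely Rpl13, Rpsa, Rps24, Rpl19, Tpt1, Eef1a1, mt-Co1, mt-Co2, mt-Co3 and mt-Atp6.

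Of 14 listed proteases, 13 are in the count table and 11 passed the filter. None was over 2-fold higher or lower than in Mast2i, beside 0.439% of all genes called higher and 4.75% called lower. The median ratio to Mast2i was 1.4 and 1.39. Against Mast2ii, Mcpt4, Tpsb2 and the lysosomal protease Ctsd were over 2-fold higher, beside 0.958% of all genes, and the median ratio was 1.64 and 1.57. Mcpt4, a chymase, stood at 1842 and 2407 CPM in Mast1, 1165 and 1203 in Mast2i and 863 and 954 in Mast2ii. Ctsd stood at 744 and 931 CPM in Mast1, 420.0 and 569 in Mast2i and 334 and 437 in Mast2ii. The summed protease list was 1.5 and 1.4 times its Mast2i level and 1.65 and 1.67 times its Mast2ii level.

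A few proteases did not follow. Tpsg1, a membrane-anchored tryptase, was below the other clusters without reaching 2-fold, at 287 and 328 CPM in Mast1, 339.7 and 431 in Mast2i and 475 and 566 in Mast2ii. Mcpt2, a mucosal mast cell chymase, stood at 148 and 267 CPM in Mast1, 413 and 260.2 in Mast2i and 79 and 174 in Mast2ii, but single cells carried much of it. One Mast2i cell held 735 of 1214 Mcpt2 UMIs in library 1 and another 1270 of 2987 in library 2. Without the cell of each cluster and library that held most, the ratio to Mast2i was 0.697 and 1.56, in place of 0.358 and 1.03. The libraries thus gave opposite orders either way, with library 2 close to even in the full set. Granzyme B (Gzmb) was near the floor, at 5.73 and 14.4 CPM in Mast1, 24.8 and 15.2 in Mast2i and 6.04 and 13.5 in Mast2ii. Cma1, Cma2, Mcpt1, Mcpt2, Mcpt4, Mcpt8, Ctsg and Gzmb lie in 1 stretch of chromosome 14, and Tpsb2, Tpsab1, Tpsg1 and Prss34 on chromosome 17. Reads shared between such close relatives could have been assigned to either, and how they were resolved was not tested.

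**Figure D1:**
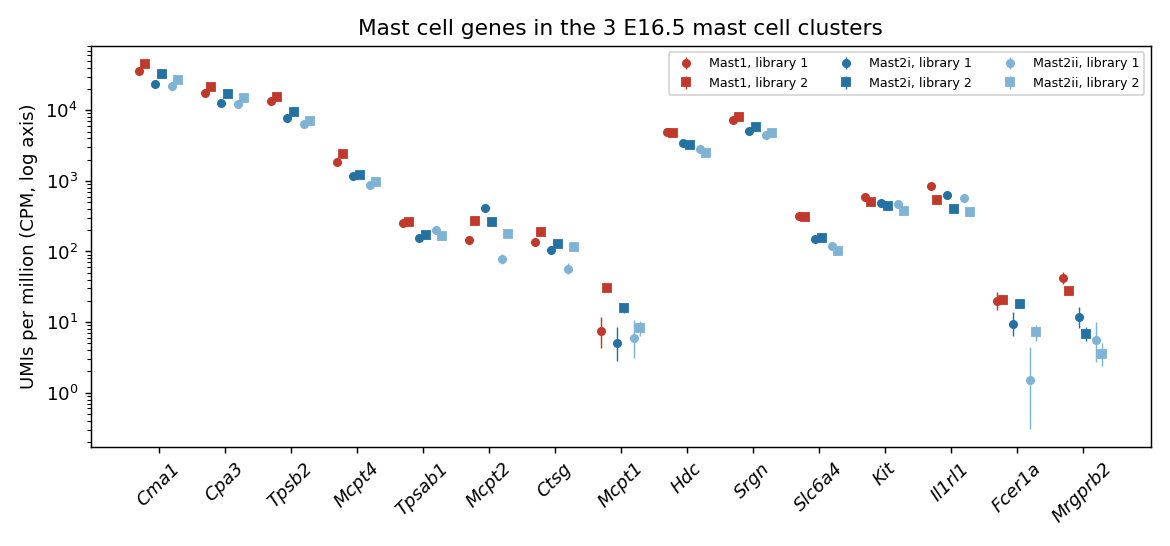
CPM on a log axis of 15 mast cell genes in Mast1, Mast2i and Mast2ii, with circles for library 1, squares for library 2 and bars for exact Poisson 95% intervals. Mast1 is highest for Cma1, Cpa3, Tpsb2, Mcpt4, Hdc, Slc6a4 and Mrgprb2 in both libraries, and Mcpt2 and Mcpt1 differ more between libraries than most.

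As shares of the transcripts of single cells, the proteases showed the same order. With every cell thinned to 5000 UMIs, a median Mast1 cell held 350 and 462 UMIs of the protease list, or 7% and 9.24% of its transcripts. Mast2i cells held 253 and 322, Mast2ii cells 236 and 283 and cells of the T cell clusters 2 and 2. Thinning brings every cell to the same total, so these values are no measure of absolute content. Without thinning, cells without T cell UMIs held medians of 390 and 327.5 Cpa3 UMIs in Mast1. The medians were 438 and 383 in Mast2i and 364 and 273 in Mast2ii, so Mast1 was not first by Cpa3 UMIs per cell. The clusters overlapped widely: the lowest 5% of Mast1 cells lay at or below 172 and 195 UMIs and the highest 5% of Mast2i cells at or above 427 and 565.

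Among 11 genes of the granule matrix and of amine storage, Slc6a4 was called higher than both clusters, beside 0.439% of all genes against Mast2i and 0.958% against Mast2ii. The median ratio of the list was 1.4 and 1.08 to Mast2i and 1.42 and 1.42 to Mast2ii. Slc6a4, the serotonin transporter, stood at 318 and 312 CPM in Mast1, 150.1 and 153 in Mast2i and 120.3 and 101 in Mast2ii, and its ratio was 2.12 (1.88 to 2.39) and 2.04 (1.93 to 2.16) to Mast2i and 2.64 (2.28 to 3.07) and 3.1 (2.87 to 3.34) to Mast2ii. Serglycin (Srgn), the core protein that holds proteases in the granule, stood at 7357 and 7918 CPM in Mast1, 5036 and 5844 in Mast2i and 4468 and 4792 in Mast2ii. Hdc, which makes histamine, stood at 4875 and 4729.9 CPM in Mast1, 3488 and 3223 in Mast2i and 2783 and 2459 in Mast2ii. Tph1, which starts serotonin synthesis, stood at 273 and 251 CPM in Mast1, 150.1 and 183 in Mast2i and 137 and 138 in Mast2ii, and Slc18a2, which loads amines into vesicles, at 163 and 144 CPM in Mast1, 113 and 101 in Mast2i and 100.1 and 98.9 in Mast2ii. For these 5 genes both libraries placed Mast1 first. The heparin-synthesis genes Ndst2, Hs3st1 and Papss2 did not follow, with ratios to Mast2i of 0.94 and 0.972 for Ndst2, 1.3 and 0.826 for Hs3st1 and 0.914 and 0.955 for Papss2.

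Receptor genes split by chain. Of 14 Fc receptor and signalling genes, 9 passed the filter, and only Fcer1a was called, as higher than Mast2ii, where 0.958% of all genes were. Fcer1a, the IgE-binding chain of FcεRI, stood at 20.1 and 20.7 CPM in Mast1, 9.53 and 18.2 in Mast2i and 1.51 and 7.16 in Mast2ii, so it was low in all 3 clusters. The Mast2ii value of library 1 rests on 3 UMIs, and the ratio to Mast2ii was 13.3 (4.29 to 66.6) and 2.89 (2.17 to 3.89). Ms4a2, its beta chain, did not share that order, at 105 and 97.6 CPM in Mast1, 118 and 109 in Mast2i and 131 and 111 in Mast2ii. Fcer1g, the signalling chain shared with other Fc receptors, stood at 3207 and 2754 CPM in Mast1, 2462 and 2113 in Mast2i and 2001 and 1796 in Mast2ii. Of the adaptors that act downstream, Lat was 1.7 and 1.72 times and Lat2 1.86 and 1.67 times its Mast2i level. Lat was also at 331 CPM in the T cell clusters of library 2, and without the cells with T cell UMIs its ratio was 1.7 and 1.6.

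Of 13 growth factor and cytokine receptors 6 passed the filter, with none called against Mast2i and Csf2rb2 called higher than Mast2ii. Over all genes the shares were 0.439% and 0.958%, so the absence of a call among 6 genes is no result about the list. Csf2rb2, a beta chain for interleukin 3, stood at 29.9 and 30.2 CPM in Mast1, 17.7 and 14.1 in Mast2i and 8.55 and 6.68 in Mast2ii. Kit, on which the cells were sorted, stood at 593 and 499.5 CPM in Mast1, 483 and 434 in Mast2i and 472 and 377 in Mast2ii. Il1rl1, the interleukin 33 receptor, stood at 852 and 544 CPM in Mast1, 633 and 394 in Mast2i and 565 and 363 in Mast2ii, with library 1 above library 2 in each cluster. The list of Mrgpr, purine, complement and other receptors had 4 of 14 measured genes past the filter and 1 call, Mrgprb2, higher than both clusters, beside the same shares over all genes. The gene of Mrgprb2 lies at chr7:48550965-48558086, and its level in Mast1 was 3.57 (2.42 to 5.4) and 4.06 (3.17 to 5.26) times that in Mast2i and 7.69 (4.13 to 15.9) and 7.84 (5.37 to 11.9) times that in Mast2ii, the largest ratio to Mast2i among genes past the filter by the less extreme library. Without the cells with T cell UMIs they were 3.57 and 4.34 to Mast2i and 7.55 and 9.51 to Mast2ii. The neighbouring Mrgprb1 had 2.05 and 4.32 CPM in Mast1. Adora3, the adenosine A3 receptor, stood at 203 and 210.5 CPM in Mast1, 147 and 161 in Mast2i and 154 and 135 in Mast2ii, and the purine channel P2rx1 at 131 and 159 CPM in Mast1 and 99.1 and 104 in Mast2ii, both above the other clusters by less than 2-fold.

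Of 9 measured lipid mediator genes 5 passed the filter and 1 was called higher than both clusters, where 0.439% of all genes were higher than Mast2i and 0.958% higher than Mast2ii. Pla2g7, which breaks down platelet-activating factor, stood at 397 and 334 CPM in Mast1, 137 and 158 in Mast2i and 69.4 and 115 in Mast2ii, and library 1 gave the wider gap. Hpgds, the prostaglandin D2 synthase of mast cells, stood at 203 and 119.9 CPM in Mast1, 125 and 89.9 in Mast2i and 72 and 59.97 in Mast2ii. Cyp11a1, which starts steroid synthesis, stood at 485 and 692 CPM in Mast1, 357 and 568 in Mast2i and 287 and 425 in Mast2ii. Alox5, for leukotrienes, was even, at 0.97 and 0.968 times Mast2i. The secretion machinery had 9 of 14 genes past the filter and no call, with median ratios of 1.18 and 1.19 to Mast2i and 1.17 and 1.3 to Mast2ii. Its most abundant member Cd63, a tetraspanin of granule membranes, stood at 2156 and 2506 CPM in Mast1, 1540.0 and 2064 in Mast2i and 1553 and 1894 in Mast2ii. Among cytokines 4 of 16 measured genes passed and none was called. Over all genes 4.75% were called lower than in Mast2i and 1.8% lower than in Mast2ii. No call in the secretion and cytokine lists is thus no result about them. Il4, a type 2 cytokine, stood at 116 and 88.2 CPM in Mast1, 70.8 and 53.4 in Mast2i and 60.4 and 55.4 in Mast2ii. The peptide neuromedin B (Nmb) stood at 135 and 168 CPM in Mast1, 85.8 and 105 in Mast2i and 78 and 85.3 in Mast2ii. Tnf was near level, at 35.6 and 32.1 CPM in Mast1, 28.2 and 27.3 in Mast2i and 32.7 and 33.4 in Mast2ii, and Il6 and Il13 were past the filter in no cluster.

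By the median of their list, transcription factors of the lineage were nearly level among the clusters. The median ratio was 0.989 and 1.09 to Mast2i and 0.941 and 1.07 to Mast2ii. Of 17 listed, 13 passed the filter and none was called. Over all genes 0.439% were called higher and 4.75% lower than in Mast2i, and 0.958% and 1.8% against Mast2ii. No call among 13 genes is thus no result about the list. Gata2, required for mast cell development, stood at 563 and 479 CPM in Mast1, 496 and 496 in Mast2i and 599.9 and 534 in Mast2ii. Mitf, known for activating mast cell granule genes, stood at 87.2 and 69.6 CPM in Mast1, 70.1 and 60.7 in Mast2i and 66.4 and 68.7 in Mast2ii. Gata1 stood at 36 and 38.2 CPM in Mast1, 41.5 and 40.2 in Mast2i and 42.3 and 41.2 in Mast2ii. Creb3l1, which acts in the secretory pathway, stood above even in both libraries, at 1.23 and 1.26 times Mast2i, and Lmo4 below, at 0.736 and 0.73 times Mast2i. The values of Runx1 and Ikzf2 pointed in opposite directions in the libraries, and both were above 100 CPM in the T cell clusters of library 2. Without the cells with T cell UMIs the ratio of Runx1 to Mast2i was 0.678 and 0.812.

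Mast1 had the lowest summed levels of cell cycle genes among the 3 clusters in both libraries. Of 18 S phase genes 16 were over 2-fold lower than in Mast2i, and of 18 G2/M genes 17, beside 4.75% of all genes called lower. Against Mast2ii, 2 of 16 S phase genes and 11 of 13 G2/M genes past the filter were called lower, beside 1.8% of all genes. Mki67, a marker of cycling cells, stood at 21.7 and 28.4 CPM in Mast1, 202 and 288 in Mast2i and 176 and 144 in Mast2ii. Top2a, which untangles DNA in S and G2 phase, stood at 20.9 and 50.5 CPM in Mast1, 322 and 367 in Mast2i and 67.9 and 75.5 in Mast2ii. Rrm2, which makes deoxynucleotides, stood at 5.32 and 26.5 CPM in Mast1, 155 and 184 in Mast2i and 21.1 and 35.1 in Mast2ii, and the replication helicase gene Mcm5 at 22.1 and 43.5 CPM in Mast1, 102 and 132 in Mast2i and 61.4 and 62.9 in Mast2ii. The mitotic cyclin Ccnb1 stood at 6.55 and 10.8 CPM in Mast1, 43.9 and 90.7 in Mast2i and 42.8 and 90.6 in Mast2ii, and Cdc20, which triggers the exit from mitosis, at 9.41 and 12 CPM in Mast1, 33.4 and 86.1 in Mast2i and 73 and 130.5 in Mast2ii. Mast2ii thus lay near Mast1 for Top2a and Rrm2 in library 2 and near Mast2i for Ccnb1, with Cdc20 highest in Mast2ii. Without the cells with T cell UMIs the library 2 level in Mast1 was 9.08 CPM for Mki67, 17.4 for Top2a, 6.47 for Rrm2, 5.22 for Ccnb1 and 6.83 for Cdc20. The ratios to Mast2ii in library 2 then were 0.245 for Top2a and 0.206 for Rrm2, so Mast1 lay further below Mast2ii than in the full set of cells.

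The S phase list as a whole was 4.08 and 2.86 times higher in Mast2i than in Mast1 and 2.22 and 1.36 times higher in Mast2ii. For the G2/M list these ratios were 6.73 and 7.07 for Mast2i and 5.87 and 4.93 for Mast2ii. T cell clusters of library 2 were rich in the same genes, with 241 CPM of Mki67 and 398 of Top2a. Without the cells with T cell UMIs the log2 ratio of the summed S phase genes was -1.11 and -0.92 against Mast2ii, where it had been -1.15 and -0.44, so the libraries came closer together. For G2/M genes against Mast2i it was -2.75 and -3.99 in place of -2.75 and -2.82. The calls then numbered 6 of 15 S phase and 13 of 13 G2/M genes lower than in Mast2ii, where 132 of all 4985 genes tested without these cells (2.65%) were called lower.

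**Figure D2:**
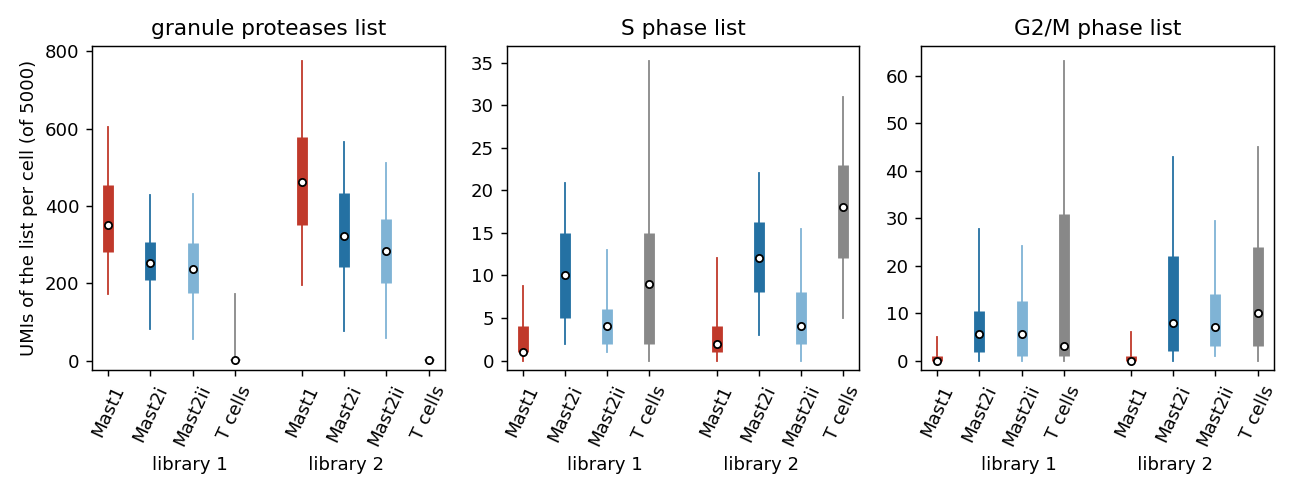
UMIs of the granule protease, S phase and G2/M lists per cell after thinning to 5000 UMIs, for Mast1, Mast2i, Mast2ii and T cell clusters in libraries 1 and 2. Dots are medians, thick bars the middle 50% and thin lines the 5th to 95th percentiles; Mast1 has the highest protease medians, 350 and 462, and a median of 0 G2/M UMIs.

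Per cell, 5 or more of 5000 UMIs came from the G2/M list in 6.67 and 6.62% of Mast1 cells, against 54.8 and 61.3% of Mast2i and 54.4 and 63.7% of Mast2ii cells. For the S phase list the shares were 21.9 and 24.3% of Mast1, 77.4 and 91.7% of Mast2i and 41.2 and 46.8% of Mast2ii cells. Cells with T cell UMIs were kept in these shares, and their part was not tested. The sharpest differences among single genes, by the less extreme library, were of the same kind. Against Mast2i they included the histones Hist1h2ab, Hist1h1b and Hist1h3c, the DNA repair gene Neil3 and the division genes Sgo2a, Nuf2, Shcbp1, Knl1 and Aspm. Hist1h1b, a linker histone made in S phase, stood at 6.14 and 65 CPM in Mast1, 343 and 669.5 in Mast2i and 33.7 and 30.3 in Mast2ii. Without the cells with T cell UMIs it was at 7.82 CPM in Mast1 of library 2 and 0.4 times Mast2ii there, where the full set gave 2.14. Against Mast2ii they were Hmmr, C330027C09Rik, Cdc20, Birc5, Cenpa, Ccna2, Ccnb1, Cdca8, Shcbp1 and Tpx2. Hmmr, which acts at the mitotic spindle, stood at 6.96 and 6.63 CPM in Mast1, 53.4 and 102 in Mast2i and 84.5 and 93.6 in Mast2ii, the largest gap to Mast2ii by the less extreme library, and at 1.8 CPM in Mast1 of library 2 without the cells with T cell UMIs. Altogether 63 genes were called lower than both clusters, and 61 of these also without the cells with T cell UMIs.

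Far fewer genes were higher in Mast1 than in both clusters, 18 in all. They were Mrgprb2, Slc6a4, Pla2g7, Calca, Ramp1, Ifitm1, Fgfr1, Cd33, Pilrb2, Lilr4b, Anpep, Lgals7, Cd24a, Ctla2a, Fbp1, Sytl3, Map1lc3a and N4bp2l1, of which Lilr4b, Map1lc3a and N4bp2l1 are named outside the rule after their values were seen. Fgfr1, a fibroblast growth factor receptor, stood at 35.6 and 22 CPM in Mast1, 11.2 and 6.53 in Mast2i and 4.53 and 2.43 in Mast2ii. Cd33, a sialic acid receptor, stood at 26.2 and 23.2 CPM in Mast1, 11.9 and 9.15 in Mast2i and 3.52 and 2.43 in Mast2ii. The paired immunoglobulin-like receptor Pilrb2 stood at 35.2 and 46.8 CPM in Mast1, 13.3 and 18.1 in Mast2i and 6.04 and 10.1 in Mast2ii. Anpep, aminopeptidase N, stood at 22.5 and 20.1 CPM in Mast1, 8.17 and 7.23 in Mast2i and 4.53 and 4.01 in Mast2ii. For these 4 genes both libraries gave the order Mast1, Mast2i, Mast2ii. Lgals7, a galectin, stood at 79.4 and 73.2 CPM in Mast1, 35.7 and 29.2 in Mast2i and 27.7 and 22.5 in Mast2ii.

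Calca, the gene of calcitonin gene-related peptide, and Ramp1, a subunit of the receptor for that peptide, were both on the list. Calca stood at 216 and 97.8 CPM in Mast1, 42.9 and 34.1 in Mast2i and 16.6 and 17.8 in Mast2ii, and Ramp1 at 44.2 and 78.8 CPM in Mast1, 21.4 and 29.5 in Mast2i and 10.1 and 16 in Mast2ii. In library 1 a single Mast1 cell held 220 of 528 Calca UMIs. Without the cell of each cluster and library that held most, the Calca level of Mast1 was 127 and 93.7 CPM and its ratio to Mast2i 3.65 and 3.08, in place of 5.04 and 2.86. Ifitm1, an interferon-inducible membrane protein, stood at 862 and 406 CPM in Mast1, 187 and 129 in Mast2i and 49.3 and 65.2 in Mast2ii. Its relative Ifitm2 stood at 2082 and 1538 CPM in Mast1, 929 and 833 in Mast2i and 501 and 495 in Mast2ii. Ctla2a, a cysteine protease inhibitor, stood at 518 and 380.3 CPM in Mast1, 161 and 181 in Mast2i and 123 and 133 in Mast2ii, and Sytl3, of a family that binds Rab27 on granules, at 33.6 and 40.8 CPM in Mast1, 15.7 and 16.6 in Mast2i and 8.55 and 10.2 in Mast2ii.

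Several of the 18 were also high in the T cell clusters of library 2, at 996 CPM for Ifitm1, 266 for Ramp1, 156 for Cd24a and 101 for Fbp1. Without the cells with T cell UMIs 16 of the 18 were still called against both clusters, and Cd24a and Fbp1 were not. The ratios to Mast2i then were 4.61 and 3.14 for Ifitm1 and 2.06 and 2.54 for Ramp1. Without every cell that held T, B or macrophage markers, 15 of the 18 were called, without Fbp1, Lgals7 and Ramp1. Mzb1, an endoplasmic reticulum chaperone of plasma cells, was among the 10 largest ratios to Mast2i, at 35.2 and 60.5 CPM in Mast1, 14 and 25.3 in Mast2i and 25.2 and 28.3 in Mast2ii, but stood at 491 CPM in those T cell clusters and was 2.52 and 1.35 times Mast2i without the cells with T cell UMIs. Prnp, the prion protein gene, was 4.47 and 4.55 times its Mast2ii level.

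**Figure D3:**
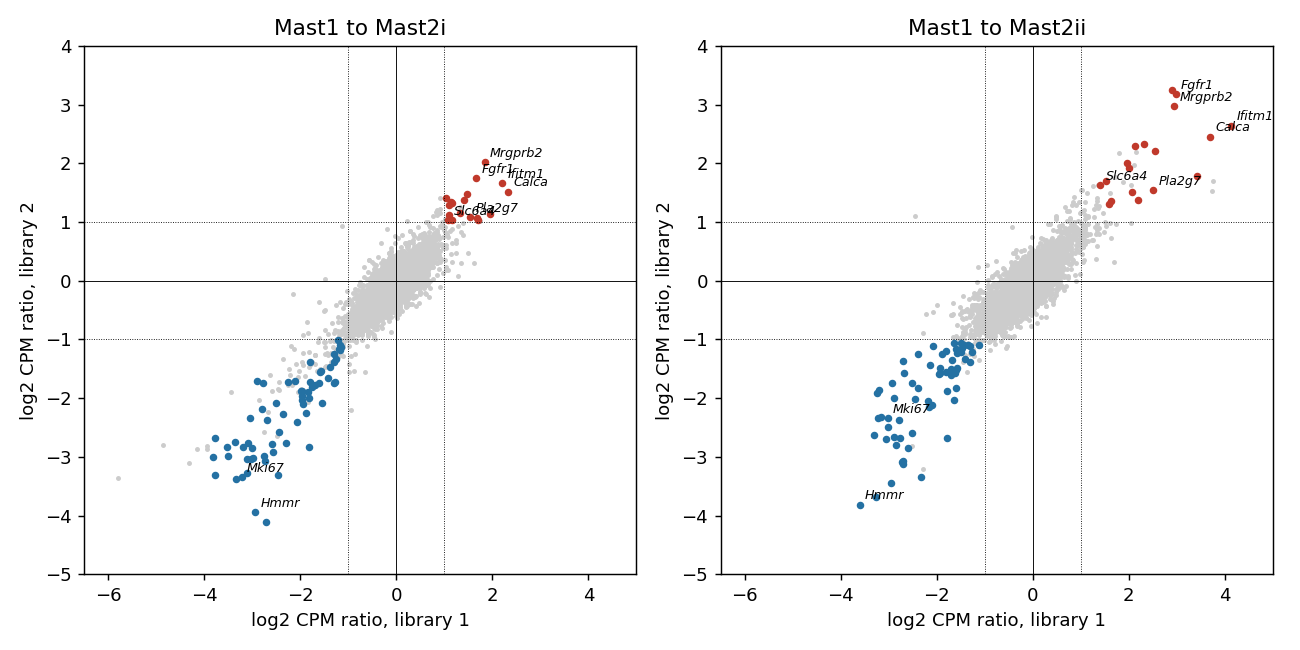
Log2 CPM ratio of Mast1 to Mast2i (left) and to Mast2ii (right) in library 1 (x axis) and library 2 (y axis), 1 point per gene past the filter in both comparisons. The 18 genes higher than both clusters are red, the 63 lower than both are blue, dotted lines mark 2-fold; the lower genes reach further from 0 than the higher ones against Mast2i.

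Genes of the endoplasmic reticulum separated Mast1 from Mast2ii more than from Mast2i, by the medians of the list. The median ratio of the 16 folding and stress genes past the filter was 1.07 and 0.953 to Mast2i, and that of 17 was 0.813 and 0.728 to Mast2ii, below the shift of all genes. The chaperone Hsp90b1 stood at 980.4 and 814 CPM in Mast1, 917 and 863 in Mast2i and 1441 and 1356 in Mast2ii. Calreticulin (Calr), which folds glycoproteins, stood at 856 and 1032 CPM in Mast1, 885 and 1211 in Mast2i and 1187 and 1518 in Mast2ii. Ddit3, a transcription factor of the stress response, went the other way and was called higher than Mast2ii, at 61.8 and 72.5 CPM in Mast1, 27.6 and 46.7 in Mast2i and 30.7 and 32.3 in Mast2ii. Its ratio to Mast2ii was 2.01 and 2.25, and 1.82 and 2.2 without the cell of each cluster and library that held most of its UMIs, so in library 1 it then stayed under 2-fold. Lysosomal genes, 14 of 14 past the filter, had no call and median ratios of 1.24 and 1.26 to Mast2i and 1.28 and 1.29 to Mast2ii. Over all genes 0.439% were called higher and 4.75% lower than in Mast2i, and 0.958% and 1.8% against Mast2ii. No call among 14 genes is thus no result about the list.

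Further lists held no call. Over all genes 0.439% were called higher and 4.75% lower than in Mast2i, and 0.958% and 1.8% against Mast2ii. At these shares no call in lists this small is no result about them. Glycolysis genes, 13 of 14 past the filter, had median ratios of 0.95 and 0.891 to Mast2i and 0.867 and 0.862 to Mast2ii. Adhesion and chemotaxis genes, 5 of 17 past it, had 1.2 and 1.11 to Mast2i and 1.1 and 1.06 to Mast2ii. Among them integrin alpha 4 (Itga4) stood below the other clusters, at 117 and 140.2 CPM in Mast1, 188 and 211 in Mast2i and 227 and 199 in Mast2ii. Of 12 stem and progenitor genes, Cd34, Meis1 and Cd48 passed, with median ratios of 1.36 and 1.11 to Mast2i, and Flt3, Mecom, Hlf, Hoxa9 and Prom1 were under 1 CPM in Mast1. Immediate early genes, which respond to handling and to stimulation, had 9 of 17 members past the filter and median ratios of 1.45 and 1.22 to Mast2i. For Egr1 and Fosb the libraries lay further apart than the clusters. Egr1 stood at 22.9 and 100.1 CPM in Mast1, 12.3 and 108 in Mast2i and 20.1 and 124 in Mast2ii, and Fosb at 17.6 and 91.2 CPM in Mast1, 11.6 and 84.8 in Mast2i and 12.1 and 85.2 in Mast2ii. Marker lists of other cell types had no called member. No T cell, B cell, neutrophil or erythroid marker passed the filter, so no call was possible for these lists. Of the others, 1 eosinophil, 1 megakaryocyte, 2 macrophage and 4 basophil markers passed. For stromal markers 0 passed against Mast2i and 1 against Mast2ii. Summed over 8 genes each, Mast1 held 15.6 and 30.5 CPM of B cell, 23.7 and 13.5 of neutrophil, 5.32 and 5.78 of erythroid and 20.1 and 21.4 of stromal markers, and 36 and 40.2 over 7 megakaryocyte and 36 and 45.4 over 7 eosinophil markers. The neutrophil markers Elane, Camp, Ngp and Ltf had no UMI in Mast1 of library 1, and the erythroid marker Hbb-y none in either library. The other neutrophil markers held all UMIs of their list in library 1. Summed, the neutrophil list was 7.75 and 1.24 times its Mast2i level and 5.9 and 1.15 times its Mast2ii level. The basophil list, which holds Cpa3, had summed ratios of 1.4 and 1.28 to Mast2i and 1.42 and 1.46 to Mast2ii.

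Mast1 cells differed among themselves. The Fano factor is the variance of a gene over cells divided by its mean, and counting alone gives about 1. At 5000 UMIs per cell it had a median of 1.04 in both libraries over 4245 genes, and it was over 2 for 100 and 109 genes. The 10 genes that ranked highest by the lower of the libraries were Mcpt4, Ifitm1, Cma1, Hspa5, Malat1, Cpa3, Ctla2a, Tpsb2, H19 and Ifitm2. For a given relative spread the factor rises with the mean, so the ranking favours abundant genes. Means of the 10 ran from 184 and 244 UMIs for Cma1 to 2.3 and 1.07 for H19. These genes varied in different ways. Cma1, Cpa3 and Tpsb2 were spread broadly over nearly all cells: Cma1 had a median of 179 and 243 UMIs with 5th percentiles of 80.2 and 86 and 95th percentiles of 318 and 431.

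Mcpt4 was instead concentrated in a minority of cells. It had no UMI in 53.3% and 55.3% of Mast1 cells, a 95th percentile of 50.6 and 93 and a maximum of 111 and 322 UMIs, with Fano factors of 42.2 and 93.3. The top 5% of cells held 42.4% and 51% of its UMIs in Mast1, 58.4% and 58.7% in Mast2i and 68.2% and 56% in Mast2ii. This concentration was thus not particular to Mast1. Ifitm1 had Fano factors of 77.9 and 37.1, with no UMI in 74.3% and 76.4% of cells and 73.9% and 71.9% of its UMIs in the top 5%. At lower means, the top 5% held 81.8% and 79.6% in Mast2i and 100% and 80.7% in Mast2ii. At the same depth 63% of the cells of T cell clusters in library 2 held an Ifitm1 UMI. In library 1, 102 of 105 Mast1 cells had no T cell UMI at that depth. The Fano factor of Ifitm1 without mixed cells is not reported here, and the part of mixed cells in its spread was not tested. Calca had 86.3% and 68.6% of its UMIs in the top 5% of cells, and the cell of library 1 that held most reached 102 at this depth. In Mast2i the top 5% held 77.8% and 93.5% of Calca UMIs, and in Mast2ii 100% and 100%, also at lower means.

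Mcpt2 and Mcpt1 were rarer. The top 5% of Mast1 cells held 72.9% and 85.1% of Mcpt2 UMIs, with a maximum of 18 and 274. In Mast2i the top 5% held 87.2% and 82%, and in Mast2ii 51.6% and 71.5%. For Mcpt1, 102 and 844 of 105 and 861 cells had no UMI, yet a cell of library 2 had 57. The higher Mcpt1 CPM of library 2 thus came from few cells: without thinning 1 cell held 282 of 394 UMIs, and without the top cell of each cluster the levels there were 8.66 CPM in Mast1 and 7.95 in Mast2i. With every cell weighted alike the log2 ratio to Mast2i was -0.07 and 0.14. Mcpt4 was absent from many cells of the other clusters too, where 53.6% and 62.3% of Mast2i and 67.6% and 64.4% of Mast2ii cells had no UMI of it.

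Hspa5, the main chaperone of the endoplasmic reticulum, was uneven in Mast1 in that a few cells held very many UMIs. Its median was 2 and 2 UMIs in Mast1, 3 and 3 in Mast2i and 4 and 5 in Mast2ii. The top 5% of Mast1 cells held 53.2% and 43.4% of its UMIs, with maxima of 71 and 106, against 16% and 21.8% in Mast2i and 17.1% and 15.3% in Mast2ii. H19, an imprinted fetal RNA, had no UMI in 71.4% and 76.1% of Mast1 cells and a maximum of 30 and 41. It had none in 64.3% and 72% of Mast2i and 76.5% and 74.5% of Mast2ii cells.

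**Figure D4:**
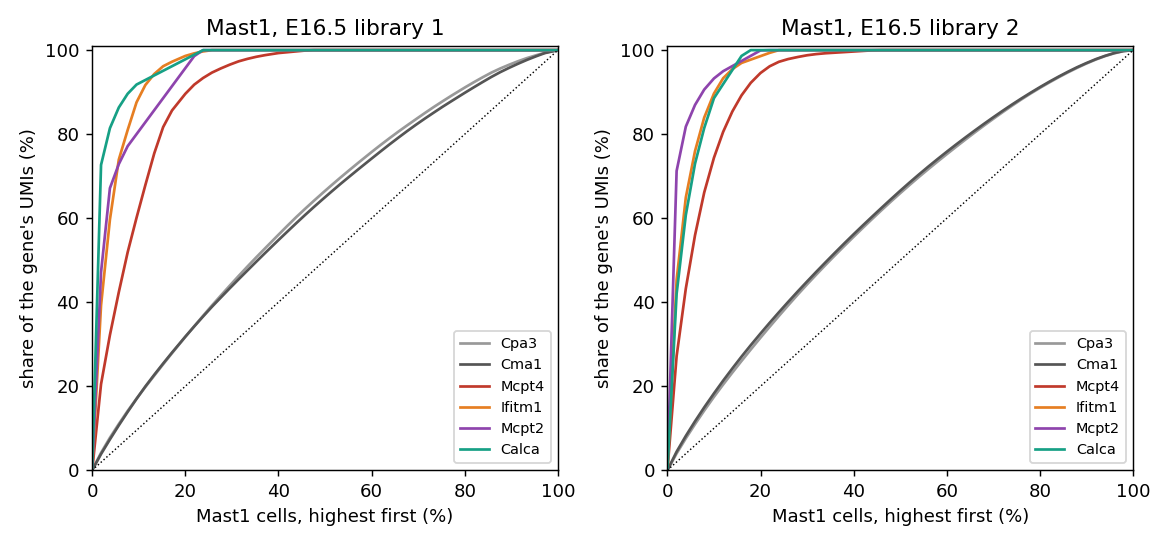
Share of the UMIs of a gene (y axis, percent) held by Mast1 cells ordered from the highest to the lowest (x axis, percent of cells), at 5000 UMIs per cell in libraries 1 and 2; the dotted diagonal is an even spread. Cpa3 and Cma1 run nearest the diagonal, and Mcpt4, Ifitm1, Mcpt2 and Calca rise steeply, with 42.4% and 51.0% of Mcpt4 UMIs in the top 5% of cells.

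Across Mast1 cells, Spearman correlations are given as a description over 105 cells of library 1 and 861 of library 2, which share a library each and a fixed total of 5000 UMIs. The coefficients were 0.56 and 0.69 for Cma1 with Cpa3, 0.60 and 0.65 for Cma1 with Tpsb2 and 0.68 and 0.62 for Cma1 with Srgn. Coefficients with other granule genes were lower, at 0.25 and 0.19 for Cma1 with Mcpt4, 0.15 and 0.29 with Hdc, 0.11 and 0.08 with Prss34, 0.13 and 0.14 with Ctsg and 0.04 and -0.01 with Mcpt2. Ifitm1 went with Ifitm2, at 0.59 and 0.52, and H19 ran opposite to Cpa3, at -0.35 and -0.33. Hspa5 went with Manf, which acts in the same folding response, at 0.33 and 0.38.

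Antibody counts are a readout that the clustering did not use. Library 1 has counts for 4 antibodies and library 2 for 16 of the 29 listed, and each median below is over the cells of 1 library, with no test. CD16/32, the low-affinity receptors for IgG, had a median of 28 counts per Mast1 cell in library 2, with quartiles of 21 and 37. The medians were 32 in Mast2i, 22 in Mast2ii, 12 in the eosinophil and basophil cluster Eos/Bas1, and 1 and 1 in the stem and progenitor cluster HSPC1 and in T cell clusters. The RNA of Fcgr3, which encodes CD16, stood at 420.4 and 508 CPM in Mast1, 312 and 372 in Mast2i and 336 and 411 in Mast2ii. Among the 3 mast cell clusters, CPM thus placed Mast1 first and antibody counts per cell placed it between Mast2i and Mast2ii. These orders are in unlike units. CPM is relative to the UMIs of the cells, which are fewer in Mast1, and the antibody counts are not scaled. Outside these clusters, Fcgr3 stood at 666 and 485 CPM in Eos/Bas1, above Mast1 in library 1 and with overlapping counting intervals in library 2.

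The antibody listed as IL33R? gave few counts, with means of 3.04 in Mast1, 4.03 in Mast2i, 2.88 in Mast2ii and 0.971 in T cell clusters. CD43, a sialomucin of leukocytes, had medians of 15, 16 and 13 in the mast cell clusters and 27 in T cell clusters. CD48, a SLAM family receptor, was measured in both libraries. Its medians in Mast1, Mast2i and Mast2ii were 53, 84 and 46 in library 1, beside 104 in other HPs. In library 2 they were 2, 2 and 2, beside 11. Mast1 was thus below the other HPs in both, and Cd48 RNA stood at 71.2 and 79.5 CPM in Mast1, 59.6 and 71.6 in Mast2i and 65.9 and 64.1 in Mast2ii. All antibodies together had medians of 57 in Mast1, 62 in Mast2i and 48.5 in Mast2ii of library 2, against 110 in other HPs. In library 1 CD48 gave most of the counts of the 4 antibodies, so their total is no separate comparison.

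**Figure D5:**
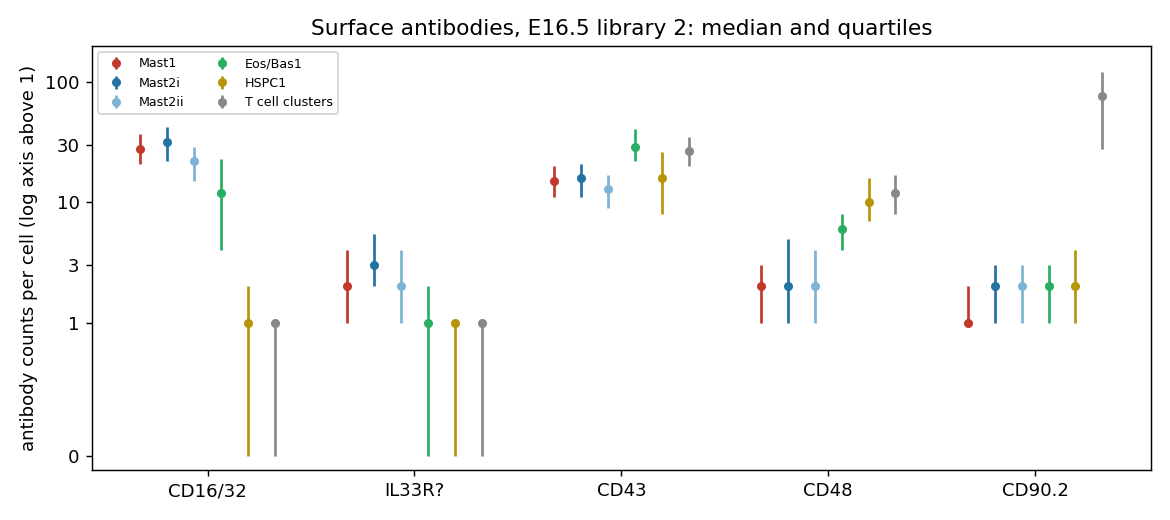
Antibody counts per cell in E16.5 library 2 (y axis, log above 1) for 5 antibodies, with dots for medians and bars for quartiles, in Mast1, Mast2i, Mast2ii, Eos/Bas1, HSPC1 and T cell clusters. The 3 mast cell clusters have CD16/32 medians from 22 to 32, and T cell clusters stand apart for CD90.2 with a median of 77.

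Mast cells of the later stages come from other clusters and 1 library each, so their values stand side by side with no comparison. Cluster Mast3 had 162 cells at E18.5 and 260 at P0, and Mast4i had 201 adult cells with a median of 667 UMIs and 150033 UMIs in all, so adult values rest on few counts. Mast4 at P0 (274 cells), Mast4ii in the adult (120) and Mast/Bas at E18.5 (41) are other clusters with mast cell names and are not described here. Cma1, at 35583 and 44835 CPM in Mast1, stood at 7308 CPM in E18.5 Mast3, 11948 in P0 Mast3 and 24035 in adult Mast4i. Cpa3 stood at 6764 CPM in E18.5 Mast3, 8354 in P0 Mast3 and 11084 in adult Mast4i, and Tpsb2 at 1498 CPM in E18.5 Mast3, 2424 in P0 Mast3 and 7752 in adult Mast4i.

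Granzyme B (Gzmb), at 5.73 and 14.4 CPM in Mast1, stood at 688 CPM in E18.5 Mast3, 1089 in P0 Mast3 and 6.67 in adult Mast4i. Mcpt8 stood at 213 CPM in E18.5 Mast3, 336 in P0 Mast3 and 59.99 in adult Mast4i, and Prss34, at 1052 and 1257 in Mast1, at 65 CPM in E18.5 Mast3, 135 in P0 Mast3 and 759.8 in adult Mast4i. Mrgprb2 stood at 10.9 CPM in E18.5 Mast3, 5.61 in P0 Mast3 and 0 in adult Mast4i, and 0 UMIs in the adult cluster allow up to 24.6 CPM by the exact Poisson interval. Slc6a4 stood at 59.5 CPM in E18.5 Mast3, 137 in P0 Mast3 and 153 in adult Mast4i, and Pla2g7 at 42.4 CPM in E18.5 Mast3, 49 in P0 Mast3 and 127 in adult Mast4i. Mki67 stood at 321 CPM in E18.5 Mast3, 184 in P0 Mast3 and 153 in adult Mast4i, beside 21.7 and 28.4 in Mast1. Mast1 is only a part of the E16.5 mast cells, and Mki67 was higher in Mast2i and Mast2ii, as given above. The values in Mast1 are thus not those of all mast cells of its stage.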

How the data were processed

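Single-cell libraries of fetal, newborn and adult bone marrow were analysed from the deposited tables. UMI counts per gene and cell, and antibody counts per cell, were deposited by the authors as raw counts of 20275 genes and 29 antibodies. Per the labels and methods, reads were processed with Cell Ranger 3.1.0 on mm10 and cells were filtered on UMIs, genes and mitochondrial share and clustered with Seurat 3.1.5 in R 4.0, as the submitters' processing notes name them. Before clustering, the authors regressed UMI totals, mitochondrial share and inferred cell cycle scores out of the variable genes. The counts used here carry no such correction. The authors also deposited the mitochondrial fraction of each cell and an hscScore, a score whose scale is used here as given.

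Cluster names were taken from the deposited annotation, and UMIs were summed per cluster and library, since cells are not replicates. CPM, exact Poisson intervals of levels, exact conditional intervals of ratios and Clopper-Pearson intervals of shares were computed with Python 3.11.15, numpy 2.4.6, scipy 1.17.1 and pandas 2.3.3, and plots were drawn with matplotlib 3.10.9. Calls needed a ratio over 2-fold in both libraries, with at least 20 CPM and 10 UMIs in the higher cluster of each. Cells were thinned at random to 2000 UMIs for shares and mixed cells, and to 5000 UMIs for Fano factors of genes with a mean of at least 0.1. No doublet caller was run; a cell with at least 2 UMIs of the T cell, B cell or macrophage list after thinning counted as mixed. The authors had left out the cells of each sample with the most genes or UMIs as likely doublets before deposit. E16.5 HPs were clustered again with scanpy 1.11.5, leidenalg 0.10.2 and scikit-learn 1.9.0 as an alternative. The steps were tested on simulated data. Promoter windows and positions came from RefSeq on GRCm38.p6.

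Genes were named from 28 lists with 318 genes, from the 10 largest and 10 smallest ratios to each cluster by the less extreme library (without mitochondrial, ribosomal protein genes and Gm42418), the 15 highest levels and the 10 highest Fano factors. The members and the lists were chosen with earlier results of these data known. No test was run, because the clusters were made from the genes compared. Alternatives changed the filter, the scaling, the thinning, the summary over cells, the cells and the libraries used. A few genes that the rule names are not reported here.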

Additional observations from a re-analysis of the deposited data

How the results depend on the processing

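No paired analysis was possible because no result comes from a test; each ratio is already taken within 1 library. Leaving out cells with markers of another type raised the Mast1 share to 33.3% and 40.5% by construction, since mainly Mono/Mast cells (153 of 161) in library 1 and T cells in library 2 leave the total. Reclustering gave 24.1% and 19.2%; it placed 84.4% of Mast1 cells in 2 clusters, of which 78.6% were Mast1, with 147 Mast2i and 74 Mast2ii cells. Counts of genes, given as higher and lower than Mast2i and then higher and lower than Mast2ii, were 22, 238, 48 and 90. With at least 50 CPM they were 7, 111, 24 and 54. With no CPM filter they were 82, 464, 175 and 172. With ratios divided by their median, 90 genes were higher than in Mast2ii. Without mixed cells, 137 were lower than in Mast2ii. As a mean over cells they were 27, 286, 54 and 117, of which 19, 234, 43 and 87 were also called in the summed counts. With cells thinned to 5000 UMIs they were 28, 242, 61 and 107, of which 14, 189, 40 and 68 were. With 1 library left out they ranged from 52 to 63, from 302 to 333, from 92 to 126 and from 116 to 296, because a call then needs 1 library only. The alternative without cells with T cell UMIs alone was chosen after seeing the data and gave 22, 268, 60 and 132. Antibody differences between Mast1 and other HPs kept their sign on other scales: from a centred log ratio (CLR) within the library to percent of antibody counts and to CLR over all HP libraries, CD16/32 went from 1.44 to 45.5 and 2.28, IL33R? from 0.42 to 3.60 and 0.58, and CD48 from -0.26 to -0.52 and -0.30 in library 1 and from -0.66 to -7.82 and -0.18 in library 2. Of 62 ratios of genes and lists recomputed in 371 values, 127 moved by more than the SD of the libraries, by up to 1.22 on the log2 scale, and 8 changed sign, none of them over 2-fold in both libraries; the 8 belong to the ER list against Mast2i and to the eosinophil, macrophage, erythroid and stromal lists. Leaving out the cell with most UMIs of a gene in each cluster and library, also chosen after seeing the data, ended 1 call among the listed and named genes, Ddit3 against Mast2ii. The Mcpt1 ratio to Mast2i fell to 0.03 on the log2 scale as a mean over cells and to 0.01 with thinned cells, from 0.73. Library 1 holds 106 Mast1 cells, so the counting intervals of genes at low levels are widest there.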
